A study of Mus musculus with 6 samples.

Results

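The 8 keratins described here, Krt5, Krt14, Krt15, Krt1, Krt10, Krt77, Krt2 and Krt79, are those that resting mouse epidermis and the upper hair follicle are known for. They were taken by symbol from the 31053 genes of the count matrices, which also list 45 other keratin genes, and each symbol matched 1 gene. Their levels were read in keratin-gated barcodes, the droplet barcodes in which Krt5, Krt14, Krt1 and Krt10 together made up at least 30 of every 10000 unique molecular identifiers (UMIs, each a counted transcript molecule).

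Keratins are filament proteins that assemble as obligate pairs of a type I and a type II chain and give epithelial cells their mechanical strength. Basal keratinocytes, which divide on the basement membrane, make the pair Krt5 and Krt14 together with Krt15. Cells that leave the basal layer turn to the pair Krt1 and Krt10, which is the classical sign of the start of terminal differentiation, and to late partners such as Krt2 and Krt77, while wounded or inflamed epidermis makes Krt6, Krt16 and Krt17 in addition.

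The study asked what an inhibitor of the phosphatase SHP2 does to psoriasis-like skin inflammation, and profiled dorsal skin by droplet single-cell RNA sequencing in 6 libraries. All mice were female C57BL/6J of 8 to 10 weeks. The Sham group, which the labels give as untreated, had 2 libraries of 2 pooled mice each. The IMQ group had 2 libraries of 3 pooled mice each that received 62.5 mg of a 5% cream of imiquimod, an agonist of the receptor TLR7, on shaved dorsal skin on each of 4 days, and were killed 1 day after the last dose. The IMQ+SHP099 group had 2 libraries of 3 pooled mice each that received the same cream and SHP099 hydrochloride, an allosteric SHP2 inhibitor, by gavage at 10 mg/kg a day for 4 days, whose timing relative to the cream is not clear from the labels. Neither a vehicle cream nor SHP099 without imiquimod was among the groups. The labels name the imiquimod psoriasis model for all libraries, the untreated ones included. Because mice were pooled, the library was the replicate (n = 2 in each group), and p-values measure the spread between pools.

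The keratin gate held 6223 and 1531 barcodes in Sham, whereas IMQ had 1351 and 845 and IMQ+SHP099 5648 and 455, with library 1 before library 2 here and throughout. That was 72.5% and 18.6% of all barcodes kept in the Sham libraries, 17.6% and 8.21% with IMQ alone, and 65.0% and 6.16% with IMQ+SHP099, so the share of keratinocytes in the tissue digest differed more within groups than between them, and Sham 1 and IMQ+SHP099 1 stood apart from the other libraries. The median depth of gated barcodes was 10224 and 15324 UMIs in Sham, against 34810 and 32016 in IMQ and 25744.5 and 21905 under IMQ+SHP099. All values below are therefore UMIs per 1000000 UMIs (CPM), over the summed gated barcodes of a library, or shares of barcodes after each was thinned to 2000 UMIs. Thinning left 6021 and 1482 gated barcodes in Sham, 1290 and 823 with imiquimod alone, and 5503 and 428 with the inhibitor. The 9 keratinocyte marker genes together reached 45395 to 53233 CPM in the gate, against 155 to 3124 in background barcodes, the collagen-rich cells that should lack epidermal keratins. Langerhans cell markers (Cd207, Mfge8, H2-Aa, Ctss) summed in the gate to 367 and 181 CPM in Sham, whereas IMQ had 55.5 and 38.3 and IMQ+SHP099 98.8 and 20.3, so they were higher in Sham, as were several members, and their part in those results was not tested. Between 12 and 30 barcode sequences were shared by any pair of libraries.

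The 8 genes lie in both mouse keratin clusters. On GRCm38, Krt14 (chr11:100203162-100207548), Krt15 (chr11:100131758-100135928) and Krt10 (chr11:99385254-99389364) are type I genes. Krt5 (chr15:101707070-101712898), Krt2 (chr15:101810689-101818169), Krt1 (chr15:101845426-101850794), Krt77 (chr15:101858731-101869705) and Krt79 (chr15:101929332-101940324) are type II genes, so Krt2, Krt1 and Krt77 are close neighbours, and all 8 genes are on the minus strand. The reads come from transcript 3′ ends, so UMI counts do not scale with transcript length. Of the 50-base words in the last 500 bases of the coding transcripts, none was shared with another gene for 7 members, whereas 9.53% of the words of Krt14 also occurred in Krt16 or Krt17. Reads lying within those words would fit Krt14 and these wound keratins alike, and their part in the Krt14 counts was not tested.

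The 250 bases before the annotated RefSeq start on GRCm38.p6 are shown for the 3 suprabasal members that were lower in every treated library, Krt77 (chr15:101869706-101869955), Krt2 (chr15:101818170-101818419) and Krt10 (chr11:99389365-99389614), all read 5′ to 3′ on the minus strand. Capitals mark matches to the TATA box letters TATANA on either strand.
Krt77: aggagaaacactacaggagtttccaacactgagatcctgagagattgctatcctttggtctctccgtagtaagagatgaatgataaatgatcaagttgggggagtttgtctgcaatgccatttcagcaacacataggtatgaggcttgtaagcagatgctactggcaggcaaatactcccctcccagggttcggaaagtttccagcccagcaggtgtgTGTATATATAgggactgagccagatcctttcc
Krt2: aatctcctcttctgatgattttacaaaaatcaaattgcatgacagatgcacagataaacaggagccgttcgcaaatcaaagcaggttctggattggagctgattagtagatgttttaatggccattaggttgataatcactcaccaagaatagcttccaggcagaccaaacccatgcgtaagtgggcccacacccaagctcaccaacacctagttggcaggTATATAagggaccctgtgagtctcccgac
Krt10: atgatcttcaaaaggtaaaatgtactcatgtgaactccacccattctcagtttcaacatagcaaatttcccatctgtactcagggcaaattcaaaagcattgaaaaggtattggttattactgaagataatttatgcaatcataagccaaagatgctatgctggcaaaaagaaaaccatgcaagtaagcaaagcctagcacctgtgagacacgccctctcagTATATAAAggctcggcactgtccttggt
TATANA began 32, 30 and 28 bases before the start of Krt77 (overlapping matches), 29 bases before that of Krt2, and 28 and 26 bases before that of Krt10. The letters were not in the same window of Krt5 or Krt79, and occurred in 22.6% of all 32851 promoters. None of these windows held the AP-1 letters TGANTCA or the AP-2 letters GCCNNNGGC, which occurred in 6.75% and 13.7% of promoters. The table of promoters held 6 of the 8 members, and not Krt15 and Krt1. Its window for Krt14 lies within the annotated gene and was left out.

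In Sham the members fell into 3 tiers of level. Krt10 reached 8199 ± 2442 CPM (mean ± SD, n = 2), Krt14 7503 ± 789, Krt5 5502 ± 20.8, Krt77 4429 ± 944, Krt1 3374 ± 1219 and Krt15 2981 ± 973, and neighbours in this order differed by less than the larger of their SDs, except Krt14 from Krt5 and Krt5 from Krt77. Krt79 followed at 393 ± 388, and Krt2, a late suprabasal keratin abundant in mouse ear, sole and tail epidermis, was barely present at 6.25 ± 2.05. Together the 8 genes made 3.01% and 3.47% of all UMIs of the gated barcodes in the Sham libraries, 2.64% and 2.32% with IMQ alone, and 2.68% and 2.11% with IMQ+SHP099.

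**Figure D1:**
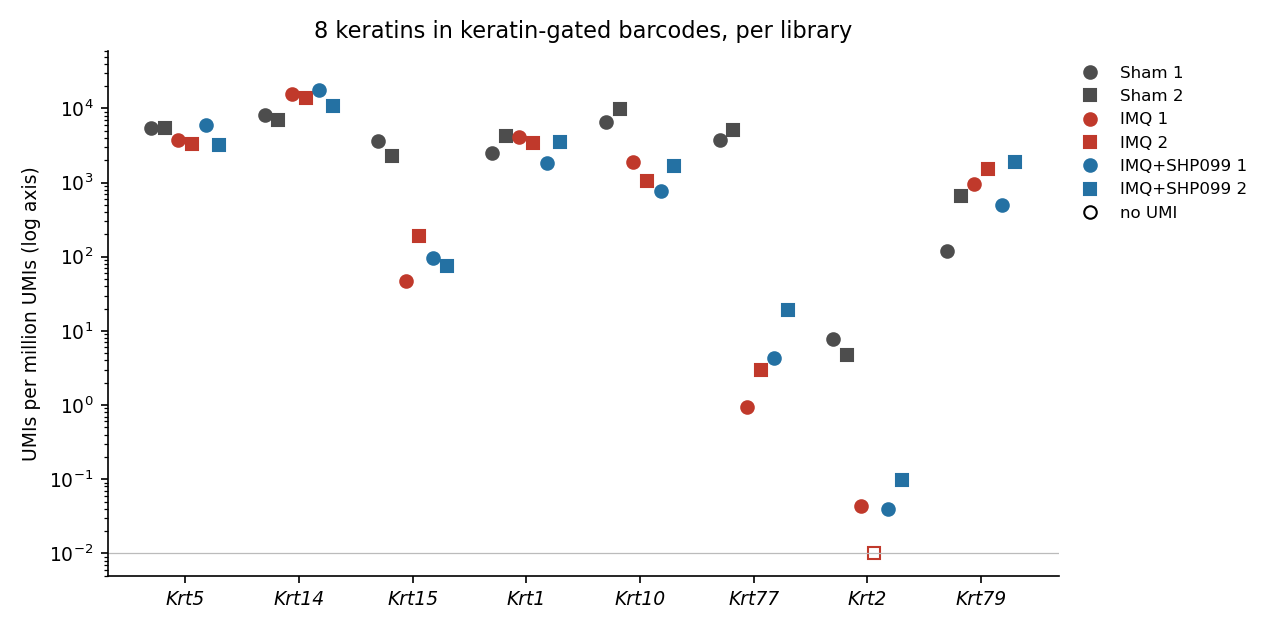
CPM of the summed keratin-gated barcodes (log axis) for the 8 keratins, 1 point per library, with open symbols for no UMI. Krt77 lies at 3761 and 5096 in Sham against 0.936 to 18.9 in the 4 treated libraries, whereas Krt5 lies between 3222 and 5961 in all 6.

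The basal pair remained abundant in every library, with less Krt5 for each Krt14 after imiquimod. Krt5 stood at 5487 and 5516 CPM in Sham, against 3785 and 3356 in IMQ and 5961 and 3222 under IMQ+SHP099. Krt14, its partner, stood at 8062 and 6945 in Sham, whereas IMQ had 15603 and 13635 and IMQ+SHP099 17668 and 10735. All 4 treated libraries were above both Sham libraries for Krt14, while for Krt5 the IMQ+SHP099 libraries lay on both sides of Sham. Their ratio, Krt5 over Krt14, was 0.681 and 0.794 in the Sham libraries, 0.243 and 0.246 with IMQ alone, and 0.337 and 0.300 with IMQ+SHP099, with no overlap between any of the groups. In the background barcodes of the same libraries it was 0.813 and 0.909 in Sham, against 0.301 and 0.346 in IMQ and 0.375 and 0.243 under IMQ+SHP099, so it was lower there too. The gate itself is built from these genes, so these values are given without a test.

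A second gate without any keratin allowed a test of all 8 members. It took barcodes with at least 20 UMIs per 10000 of 12 other epithelial genes such as Perp, Dsp and Trp63. It held 99.0% to 100% of the keratin-gated barcodes. The reverse share was lower, as keratin-gated barcodes made up only 72.6% of it for Sham 2, against 85.3% to 96.2% for every other library. With the added barcodes Krt10 of Sham 2 stood at 7686 CPM beside 9925 in the keratin gate. Its Krt14 stood at 5478 beside 6945, Krt5 at 4391 beside 5516 and Krt1 at 3276 beside 4236. How far these added barcodes moved the fits was not tested for the keratin-free gate. In it, edgeR called 1370 of 14796 genes between IMQ and Sham (9.26%) and 1418 between IMQ+SHP099 and Sham (9.58%), at an adjusted p under 0.05. Of the 8 members 3 passed in the first comparison, Krt15, Krt77 and Krt2, and 4 in the other, the same 3 and Krt10. The call of Krt2, with 2 and 0 UMIs in IMQ, is no support by itself. Krt14 did not pass, with a log2 fold change of 1.32 ± 0.63 (SE; edgeR adjusted p = 0.216) between IMQ and Sham and 1.48 ± 0.63 (adjusted p = 0.162) between IMQ+SHP099 and Sham. Krt5 differed by -0.24 ± 0.57 (adjusted p = 0.820) and 0.33 ± 0.57 (adjusted p = 0.727), the latter turning to -0.11 with library totals in place of edgeR's scaling factors. Without IMQ+SHP099 1, which has most gated barcodes of the treated libraries, the edgeR calls of members between IMQ+SHP099 and Sham did not hold. In the keratin gate fewer genes were called over all without it too. Whether the loss in the keratin-free gate is particular to these keratins was not tested. In the keratin-free gate DESeq2 on all libraries called 6 of the 8 members and 19.1% of all genes between IMQ+SHP099 and Sham.

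**Figure D2:**
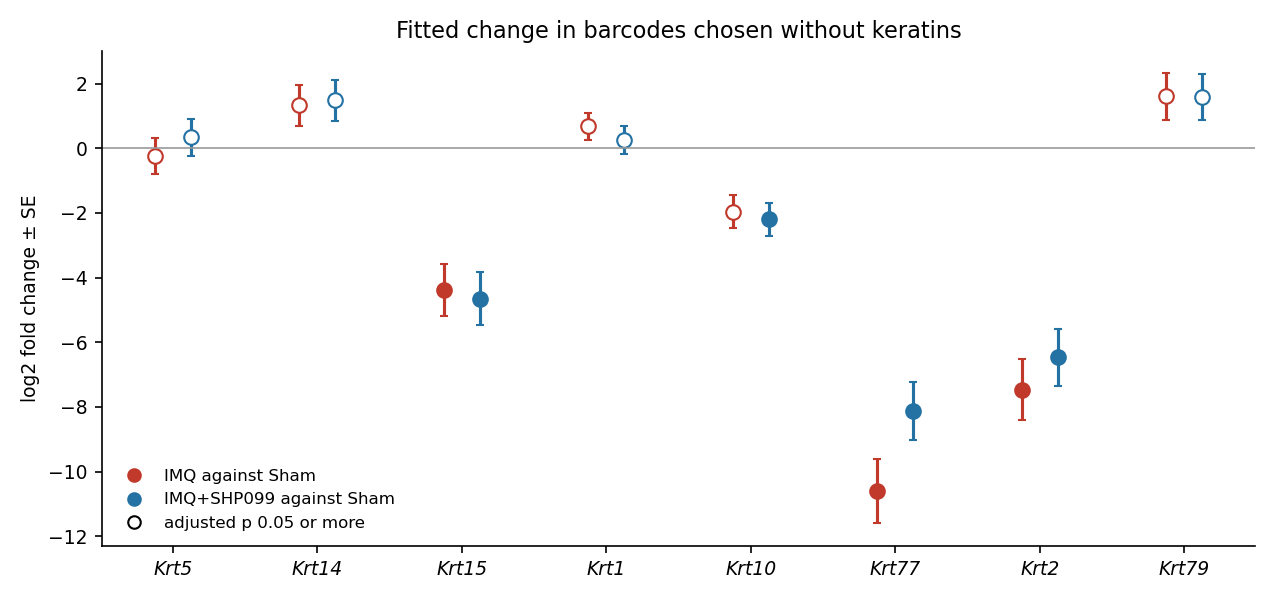
Log2 fold change with its standard error (edgeR) for the 8 keratins in barcodes chosen without keratins, IMQ against Sham and IMQ+SHP099 against Sham. Filled points have an adjusted p under 0.05: Krt15, Krt77 and Krt2 in both comparisons and Krt10 at -2.20 in the latter.

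Krt15, a type I keratin of resting basal cells and of the follicle bulge, fell after imiquimod and was then found in few barcodes. It stood at 3669 and 2293 CPM in Sham, whereas IMQ had 47.3 and 189 and IMQ+SHP099 95.5 and 74.3, so the groups with imiquimod overlapped each other and neither reached Sham. At 2000 UMIs a barcode it was detected in 76.0% and 68.2% of Sham barcodes, 4.65% and 11.8% of IMQ barcodes, and 7.18% and 5.61% of IMQ+SHP099 barcodes. Background barcodes held it in 12.4% and 3.47% in Sham and in 0.130% to 0.409% in the treated libraries, so the treated shares lay above background. In the keratin gate the log2 fold change was -4.50 ± 0.71 between IMQ and Sham (edgeR adjusted p = 0.00390) and -4.78 ± 0.72 between IMQ+SHP099 and Sham (adjusted p = 0.00356). In that gate edgeR called 2356 of 14438 genes (16.3%) in the first of these comparisons and 2564 (17.8%) in the other. Krt2, whose call is no support by itself, Krt77 and Krt15 were called in each, 3 of the 4 members the gate can test. The call between IMQ+SHP099 and Sham did not hold without IMQ+SHP099 1 (adjusted p = 0.0660).

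The remaining Krt15 sat in few barcodes. Barcodes with Krt15 at 10 or more UMIs per 10000 were 67.1% and 56.5% of gated barcodes in the Sham libraries, 1.92% and 8.05% with IMQ alone, and 3.47% and 3.74% with IMQ+SHP099. In the treated libraries these held between 61.7% and 86.0% of all Krt15 UMIs of the gate. Markers of the follicle outer sheath and bulge (Sox9, Lhx2, Cd34, Postn, Lgr5, Cd200) summed to 366 and 484 CPM in the Sham barcodes with Krt15. The same markers summed to 2241 and 3074 in those of IMQ, and to 1878 and 2128 in those of IMQ+SHP099. In gated barcodes below that Krt15 level the sum was 172 to 324 in all 6 libraries. The collagen-rich background barcodes held these markers too, from 757 CPM in IMQ+SHP099 1 up to 2059 in Sham 2. The sum is therefore not particular to follicle cells, and the part of background in it was not tested. With that limit, the sum was higher in barcodes with Krt15 of all 4 treated libraries than in those of Sham. The barcodes were picked on Krt15, and the difference was not tested.

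The fall of Krt15 was seen in both classes of keratinocyte. Barcodes were called basal-only with Krt5 and Krt14 together at 10 or more UMIs per 10000 and Krt1 and Krt10 below that, and suprabasal-positive with Krt1 and Krt10 at 10 or more. In basal-only barcodes Krt15 stood at 4994 and 3527 CPM in Sham, against 79.8 and 325 in IMQ and 126 and 107 under IMQ+SHP099, and fell by 4.28 ± 0.72 on the log2 scale between IMQ and Sham (edgeR adjusted p = 0.00777). In suprabasal-positive barcodes it stood at 1938 and 1150 in Sham, whereas IMQ had 4.11 and 1.26 and IMQ+SHP099 15.1 and 0.311, and fell by 8.83 ± 1.28 (adjusted p = 0.00214). Whether the fall differed between the classes was not tested.

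The suprabasal pair came apart, with Krt10 lower in every treated library and Krt1 overlapping between all groups. Krt10, the type I chain, stood at 6473 and 9925 CPM in the Sham libraries, 1908 and 1056 with IMQ alone, and 768 and 1670 with IMQ+SHP099, and all treated libraries lay below both Sham libraries. Krt1, its type II partner, stood at 2512 and 4236 in Sham, against 4123 and 3425 in IMQ and 1818 and 3519 under IMQ+SHP099. The ratio of Krt1 to Krt10 was 0.388 and 0.427 in Sham, whereas IMQ had 2.16 and 3.24 and IMQ+SHP099 2.37 and 2.11, so it was higher in each treated library than in either Sham library. Background barcodes had ratios of 0.163 to 0.414 in all 6 libraries. In the gate without keratins Krt10 had a log2 fold change of -1.96 ± 0.51 between IMQ and Sham (edgeR adjusted p = 0.0530), which did not pass, and fell by 2.20 ± 0.52 between IMQ+SHP099 and Sham (adjusted p = 0.0379). The latter call was lost without any 1 of Sham 1, IMQ 1, IMQ 2, IMQ+SHP099 1 and IMQ+SHP099 2, with adjusted p between 0.0613 and 0.246. Krt1 differed by 0.68 ± 0.42 (adjusted p = 0.343) and 0.25 ± 0.42 (adjusted p = 0.725), the latter reversing to -0.14 with library totals in place of edgeR's scaling factors.

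Krt77, a type II keratin of the suprabasal layers, had a level between those of Krt15 and Krt5 in Sham and was nearly absent after imiquimod. It stood at 3761 and 5096 CPM in the Sham libraries, 0.936 and 3.02 with IMQ alone, and 4.31 and 18.9 with IMQ+SHP099. These levels rest on 323380 and 133944 UMIs in Sham, against 43 and 80 in IMQ and 655 and 197 under IMQ+SHP099. Both IMQ+SHP099 libraries lay above both IMQ libraries, and all 4 lay below Sham. Pooled over each group, Sham over IMQ was 2401-fold, with a 95% interval of 2012 to 2889 for counting error only, and Sham over IMQ+SHP099 was 777-fold (726 to 832). Sham was 4353-fold and 1351-fold above IMQ 1 and IMQ 2, and 946-fold and 215-fold above IMQ+SHP099 1 and IMQ+SHP099 2. It was detected in 38.2% and 46.0% of Sham barcodes at 2000 UMIs, 0.233% and 0.243% of IMQ barcodes, and 0.745% and 2.10% of IMQ+SHP099 barcodes. Background barcodes held it in 8.72% and 4.74% in Sham, and in 0% to 0.117% in the treated libraries. The fitted log2 fold change was -10.91 ± 0.95 between IMQ and Sham (edgeR adjusted p = 0.000266) and -8.31 ± 0.85 between IMQ+SHP099 and Sham (adjusted p = 0.000567).

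The few treated barcodes with Krt77 held more upper follicle markers than those of Sham, a difference that was not tested. In Sham, 1687 and 536 barcodes held Krt77 at 10 or more UMIs per 10000, with median levels of 63.3 and 63.9. None in IMQ 1 and 1 in IMQ 2 did, the latter with 82.5% of the Krt77 UMIs of its library, and 4 did in each IMQ+SHP099 library. Markers of the upper follicle and sebaceous gland (Defb6, Cst6, Scd1, Mgst1, Sox9, Lrig1) summed to 1668 and 2218 CPM in the Sham barcodes with Krt77 and to 40836 to 91064 in those of the 3 treated libraries that had any. These 9 treated barcodes are too few for any comparison between the treatments.

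Within the epidermis of Sham, Krt77 tracked the suprabasal class. It stood at 60.5 and 162 CPM in basal-only barcodes and at 8595 and 9664 in suprabasal-positive ones, 142 and 59.5 times as much. In suprabasal-positive barcodes of treated skin it stood at 1.62 and 6.55 in IMQ and at 12.3 and 53.5 under IMQ+SHP099. Among these barcodes, which all hold Krt1 and Krt10 together at 10 or more UMIs per 10000, the log2 fold change was -10.87 ± 1.02 between IMQ and Sham (edgeR adjusted p = 0.000281) and -7.86 ± 0.91 between IMQ+SHP099 and Sham (adjusted p = 0.000830). In basal-only barcodes it was -7.64 ± 0.57 (adjusted p = 0.000260) and -5.33 ± 0.49 (adjusted p = 0.000669). Background barcodes held 101 and 27.2 CPM of Krt77 in Sham and 0 to 0.153 in the treated libraries. The basal-only level of Sham 1 thus lay below its own background, and the part of background in the basal-only difference was not tested. The class fits called 14.6% and 17.8% of genes in basal-only barcodes and 16.9% and 14.9% in suprabasal-positive ones, each pair being IMQ and IMQ+SHP099 against Sham.

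Krt2 followed Krt77 at a far lower level. Its UMIs in the gate were 662 and 126 in Sham, whereas IMQ had 2 and 0 and IMQ+SHP099 6 and 1, which is 7.70 and 4.79 CPM in Sham, 0.0435 and 0 in IMQ (where 0 allows up to 0.113), and 0.0395 and 0.0962 in IMQ+SHP099. The groups with imiquimod overlapped each other and lay below Sham. At 2000 UMIs a barcode it was detected in 0.963% and 0.540% of Sham barcodes and in 0 of the treated barcodes, which allows up to 0.233% and 0.365% in IMQ, or 0.0545% and 0.701% under IMQ+SHP099 (3 counts of the total). It was also at 0 in the background barcodes. Pooled over groups, Sham over IMQ was 254-fold with a counting interval of 70.2 to 2104 on the 2 UMIs, and Sham over IMQ+SHP099 was 163-fold (78.7 to 406) on 7. The fits gave log2 fold changes of -7.54 ± 0.83 (edgeR adjusted p = 0.000654) and -6.59 ± 0.78 (adjusted p = 0.00106), whose sizes depend on the prior count. Without IMQ+SHP099 1 the latter had an adjusted p of 0.0565. Krt2 met the filter on low counts through its Sham libraries, so being tested at all meant that it differed, and its call is no support by itself.

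Krt79, a type II keratin of the upper follicle, had a higher mean in both treated groups than in Sham, as Krt14 did. It stood at 119 and 667 CPM in the Sham libraries, 943 and 1528 with IMQ alone, and 497 and 1878 with IMQ+SHP099, so IMQ lay above Sham and IMQ+SHP099 overlapped both. The log2 fold changes of 2.04 ± 0.71 between IMQ and Sham (edgeR adjusted p = 0.0832) and 2.03 ± 0.71 between IMQ+SHP099 and Sham (adjusted p = 0.0789) did not pass. Without Sham 2 they were 3.39 (adjusted p = 0.0371) and 3.38 (adjusted p = 0.0385), and without Sham 1 they were 1.37 (adjusted p = 0.225) and 1.35 (adjusted p = 0.210). That between IMQ+SHP099 and Sham was 2.04 without IMQ 1 (adjusted p = 0.0422) or IMQ 2 (adjusted p = 0.0405), and 1.08 without IMQ+SHP099 2 (adjusted p = 0.358). In suprabasal-positive barcodes, where it stood at 175 and 375 in Sham, against 772 and 1730 in IMQ and 887 and 3252 under IMQ+SHP099, Krt79 rose by 2.54 ± 0.61 (adjusted p = 0.0223) and 3.27 ± 0.63 (adjusted p = 0.00992). This class differed in make-up. Barcodes with only the suprabasal pair were 1326 of 2569 and 349 of 698 of it in Sham, but 2 to 28 in each treated library. In barcodes with both pairs Krt79 stood at 101 and 658 in Sham. There IMQ had 783 and 1739 and IMQ+SHP099 894 and 3347, and the difference was not tested. In basal-only barcodes the values were 76.0 and 983 in Sham, whereas IMQ had 1071 and 1382 and IMQ+SHP099 347 and 1263, and neither difference passed (adjusted p = 0.229 and 0.365).

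Krt79 marked a distinct set of barcodes rather than a low level in all. Between 87.8% and 98.1% of its UMIs came from barcodes with at least 10 UMIs per 10000, which were 2.33% and 9.34% of gated barcodes in the Sham libraries, 17.0% and 22.2% with IMQ alone, and 7.81% and 25.1% with IMQ+SHP099. Their median level was 48.3 and 92.4 UMIs per 10000 in Sham, against 60.3 and 51.3 in IMQ and 51.6 and 64.5 under IMQ+SHP099, so the groups overlapped in level. In the share of barcodes IMQ lay above Sham, and IMQ+SHP099 overlapped both. The upper follicle markers other than Krt79 summed to 14543 and 13159 CPM in these barcodes in Sham, whereas IMQ had 7695 and 9122 and IMQ+SHP099 17900 and 22449, against 618 to 1609 in the rest of the gate. Over the whole gate they summed to 906 and 1526 in the Sham libraries, 1925 and 3150 with IMQ alone, and 2086 and 5536 with IMQ+SHP099. Each treated library thus lay above both Sham libraries in these markers. Krt79 did not follow them in every library, as IMQ+SHP099 1 held 497 CPM of it beside 667 in Sham 2. More cells of this kind and a wider expression of Krt79 cannot be told apart here.

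**Figure D3:**
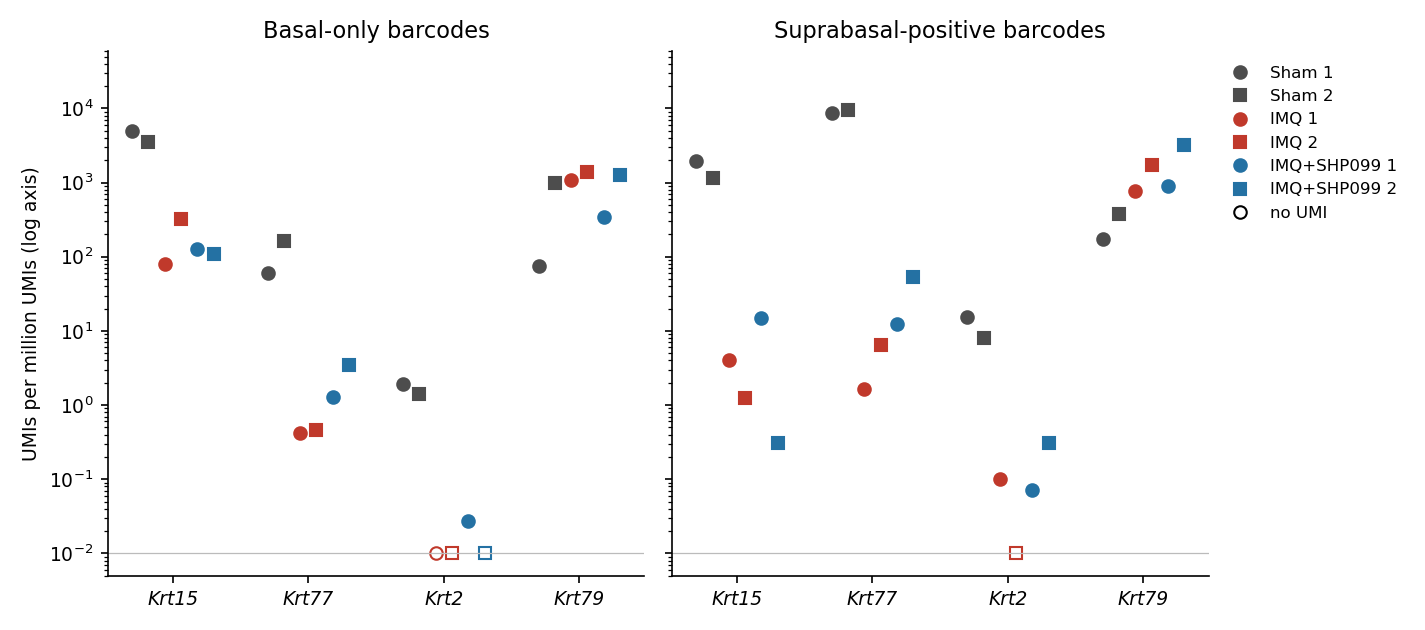
CPM (log axis) of the 4 members that were not used to gate, in basal-only barcodes on the left and suprabasal-positive barcodes on the right, 1 point per library, with open symbols for no UMI. Krt77 drops from 8595 and 9664 in Sham to at most 53.5 among barcodes that hold the suprabasal pair.

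No member passed the test between IMQ+SHP099 and IMQ. In the keratin gate edgeR called 0 genes of 14438 (0.0%), with 442 at an unadjusted p under 0.05, and DESeq2 called 19 genes, among them 1 member. edgeR also called 0.0% in the keratin-free gate (317 genes at an unadjusted p under 0.05), 0.0% in basal-only barcodes (418) and 0.0% in suprabasal-positive barcodes (357). DESeq2 called 1, 1 and 0 members there. Its share over all genes is not given for these, so the counts are no support by themselves. Krt77 was higher in both IMQ+SHP099 libraries than in both IMQ libraries, with a log2 fold change of 2.60 ± 0.69 (edgeR adjusted p = 1). Under DESeq2 it passed at 2.62 (adjusted p = 0.00238), and under edgeR with no filter on low counts at 2.61 (adjusted p = 0.000366). Even so its highest IMQ+SHP099 level, 18.9 CPM, was far below the lower Sham level of 3761. A few barcodes weighed on these levels. In IMQ 2, 1 barcode held 82.5% of the Krt77 UMIs. In IMQ+SHP099 1, 4 barcodes held 20.9% of them, and in IMQ+SHP099 2, 4 held 62.9%. Their part in the difference was not tested. Krt15 differed by -0.28 ± 0.62, Krt2 by 0.94 ± 1.15 and Krt79 by -0.01 ± 0.69, all at an adjusted p of 1. In the keratin-free gate the same comparison gave 0.57 ± 0.57 for Krt5, 0.15 ± 0.62 for Krt14, -0.43 ± 0.42 for Krt1 and -0.24 ± 0.49 for Krt10, also at an adjusted p of 1.

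Co-expression of the pairs per cell was compared after thinning each barcode to 2000 UMIs. A pair was counted where its genes together reached 10 UMIs per 10000, so either gene alone could suffice. In Sham 23.6% and 25.8% of gated barcodes held both pairs, 20.9% and 22.7% held only Krt1 and Krt10, and 55.5% and 51.5% held only Krt5 and Krt14. In IMQ 46.1% and 38.6% held both, and in IMQ+SHP099 28.9% and 33.6% did. Barcodes with only the suprabasal pair made up 0.620% and 0.122% in IMQ, or 0.436% and 2.10% under IMQ+SHP099, so the class with only the suprabasal pair was nearly empty in treated skin. The mean share with both pairs was 42.4% ± 5.29 in IMQ against 24.7% ± 1.55 in Sham (SD, n = 2), a difference of 17.7 percentage points, and 31.3% ± 3.32 in IMQ+SHP099. The groups did not overlap in any of the comparisons, but an exact permutation test (two-sided) of 2 libraries against 2 cannot give less than p = 0.333, and gave this for each. The difference between IMQ and Sham was 7.56 points with a threshold of 5 UMIs per 10000, and that between IMQ+SHP099 and Sham was 6.62 points and turned to -3.42 at that threshold.

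**Figure D4:**
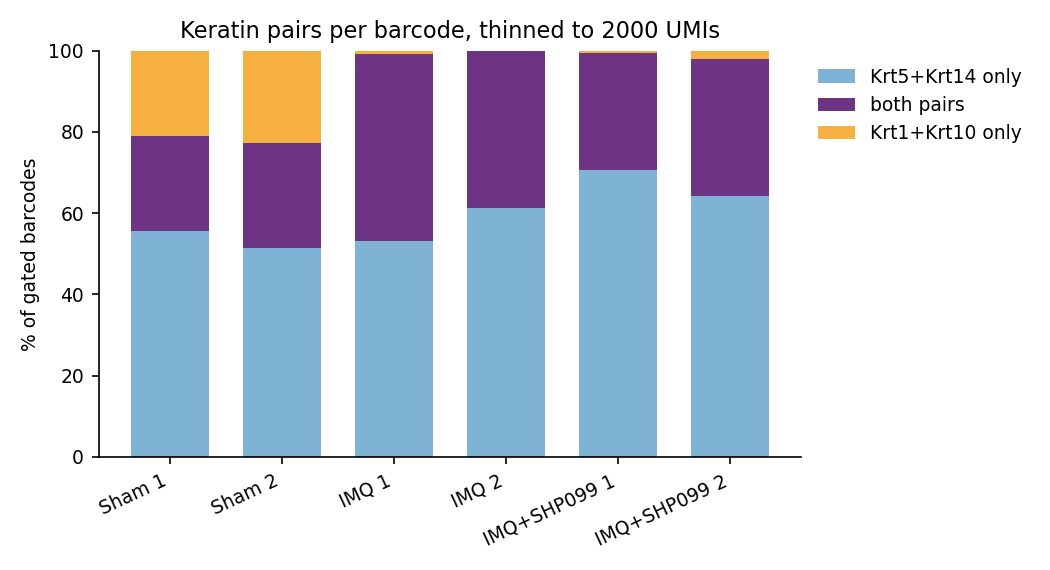
Share of keratin-gated barcodes (%, stacked to 100) with only Krt5 and Krt14, with both pairs, or with only Krt1 and Krt10 at 10 or more UMIs per 10000, per library, each barcode thinned to 2000 UMIs. The class with only Krt1 and Krt10 makes up 20.9% and 22.7% in Sham and at most 2.10% in the treated libraries.

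Seen from the suprabasal side the difference was larger. Of barcodes that reached the threshold for Krt1 and Krt10 together, 53.0% and 53.2% also reached it for Krt5 and Krt14 together in Sham. In IMQ 98.7% and 99.7% did, and under IMQ+SHP099 98.5% and 94.1%. The balance within a barcode moved too. The basal pair made between 20% and 80% of the UMIs of the 4 gate keratins in 10.3% and 9.92% of Sham barcodes, 28.9% and 23.8% of IMQ barcodes, and 15.8% and 20.8% of IMQ+SHP099 barcodes. It made under 20% in 25.5% and 27.7% of Sham barcodes, 4.81% and 1.94% of IMQ barcodes, and 1.93% and 8.41% of IMQ+SHP099 barcodes. Doublets bear on such shares. Barcodes whose UMIs of other cell type markers matched or exceeded those of the gate keratins made up 1.52% to 3.27% of the gate. Without them the difference between IMQ and Sham in the share with both pairs was 17.7 points. That filter cannot remove doublets of a basal and a suprabasal keratinocyte. Without the barcodes of highest Scrublet score the difference was 18.9 points. Such scores made up 16.1% and 7.45% of unthinned barcodes with both pairs in Sham. In IMQ they made up 9.14% and 6.77%, and in IMQ+SHP099 10.6% and 23.6%.

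Strongly suprabasal barcodes, with Krt1 and Krt10 together at 100 or more UMIs per 10000, separated the basal keratins from each other. They numbered 1662 and 501 after thinning in Sham, against 283 and 125 in IMQ and 507 and 77 under IMQ+SHP099. Krt14 reached 10 UMIs per 10000 in 18% and 26.7% of them in Sham, whereas IMQ had 96.8% and 98.4% and IMQ+SHP099 94.5% and 90.9%. Its median level in them was 0.897 and 0.758 UMIs per 10000 in the Sham libraries, 121 and 151 with IMQ alone, and 115 and 79.4 with IMQ+SHP099. Krt5 did not follow. It was there in 25.9% and 27.5% of the Sham barcodes, 25.8% and 29.6% of the IMQ ones, and 25.6% and 14.3% of the IMQ+SHP099 ones, with medians of 0 to 1.59 UMIs per 10000 in all 6 libraries. Without thinning its shares were 24.1% and 26.1% for Sham, 21.1% and 17.7% for IMQ, and 20.7% and 8.64% for IMQ+SHP099, so the mean of IMQ was then below that of Sham. Background barcodes reached the Krt14 threshold in 6.59% and 1.10% in Sham, against 1.70% and 0.597% in IMQ and 9.41% and 0.263% under IMQ+SHP099, so the treated shares were not at background level. The difference in the Krt14 share was 75.2 points between IMQ and Sham and 70.3 points between IMQ+SHP099 and Sham, and the exact permutation test gave its smallest possible p of 0.333 for both.

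Among the same strongly suprabasal barcodes, Krt15 reached the threshold in 29.2% and 26.7% in Sham, 1 of 283 and 0 of 125 in IMQ, and 2 of 507 and 0 of 77 in IMQ+SHP099. Krt77 did so in 83.8% and 88.6% in Sham. In IMQ it did so in 0 of 283 and 0 of 125, which allows shares of up to 1.30% and 2.91% (exact Clopper-Pearson 95% limits), and in IMQ+SHP099 in 7 of 507 (1.38%) and 0 of 77, the latter allowing up to 4.68%. Most strongly suprabasal barcodes thus reached the threshold for Krt14 in treated skin and for Krt77 in Sham. Wound keratins could hardly be held fixed in this comparison: strongly suprabasal barcodes with Krt6a, Krt6b, Krt16 and Krt17 together below 10 UMIs per 10000 numbered 1196 and 432 in Sham and 0 to 2 in each treated library.

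**Figure D5:**
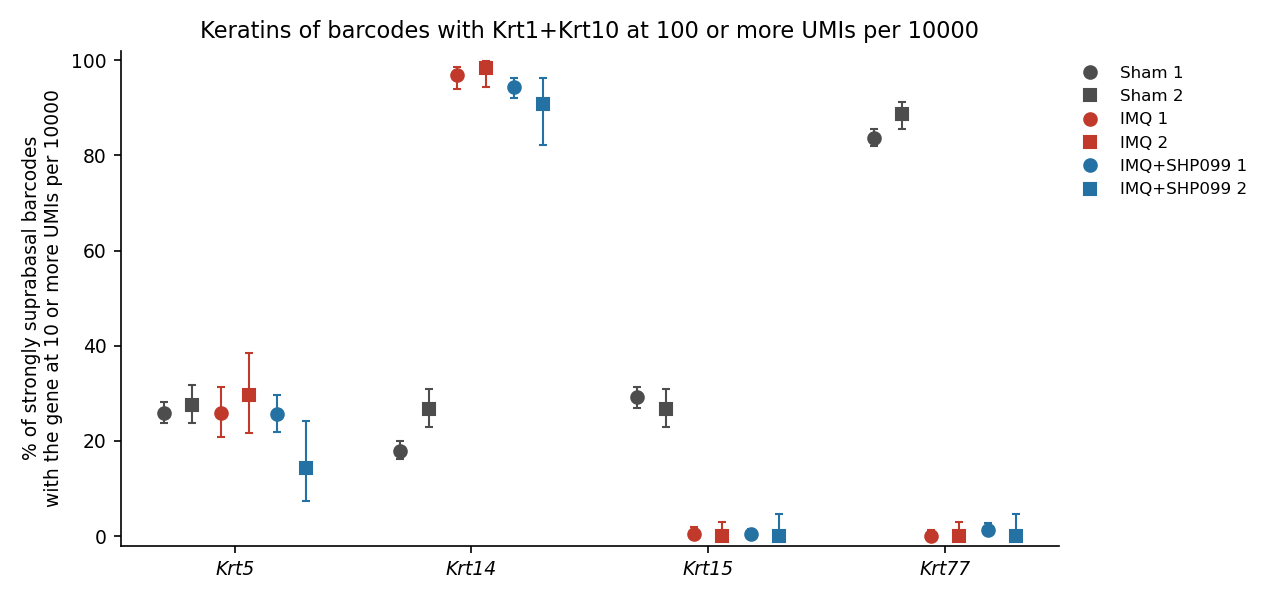
Share (%) of strongly suprabasal barcodes, thinned to 2000 UMIs, in which Krt5, Krt14, Krt15 or Krt77 reached 10 UMIs per 10000, per library, with exact 95% binomial intervals that cover counting error only. Krt14 lies at 90.9% to 98.4% in the treated libraries against 18% and 26.7% in Sham, and Krt5 between 14.3% and 29.6% in all 6.

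Over 18 sums of library by class, the genes whose log2 level was most like that of a member were, by Pearson correlation among 5164 genes, Tax1bp1 (0.962), Col17a1 (0.956) and Celsr1 (0.954) for Krt15, and Tmem43 (0.954), Tesc (0.945) and Tiam1 (0.910) for Krt77. For Krt2 they were Tesc (0.933), Tmem43 (0.928) and Krt77 (0.923), and for Krt79 Kpna2 (0.909), Psmc3 (0.899) and Hyal2 (0.892). These values are descriptions. The sums share libraries and depth, and those of the treated suprabasal-only class rest on 2 to 28 barcodes. Over the 12 sums without that class, a choice made after seeing the data, other genes came first, namely Col7a1 (0.985), Arl4c (0.983) and Slc7a6 (0.980) for Krt15, and Ssfa2 (0.979), Tspan9 (0.969) and Rapgefl1 (0.951) for Krt77. For Krt79 they were Ddit3 (0.962), Hacd3 (0.953) and Tram1 (0.948), and for Krt2 Tesc alone was among the first 3 in both.

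The other 45 keratins moved in both directions. Of the 23 that could be tested in the keratin gate, 6 rose and 9 fell between IMQ and Sham (65.2%, beside 16.3% called over all genes). Their median log2 fold change was -2.04 beside -0.06 over all genes. Krt6b, a keratin of wounded epidermis, rose by 10.71 on the log2 scale from 1.65 and 3.65 CPM in Sham to 3924 and 3053 in IMQ, and its neighbour Krt6a rose by 6.76. Krt16 and Krt17, which share 3′ sequence with Krt14, rose by 4.40 and 2.61, and stood at 546 and 216 (Krt16) and 830 and 1051 (Krt17) in Sham against 7908 and 6538 (Krt16) and 4244 and 5355 (Krt17) in IMQ. These 2 genes were named after their values were seen. Krt71, of the inner root sheath, and Krt33a, of the hair shaft, had the lowest called values at -8.69 and -7.65, but Krt71 stood at 0.523 in Sham 1 and 83.7 in Sham 2. Between IMQ+SHP099 and Sham 5 rose and 9 fell (60.9%, beside 17.8% called over all genes).

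Of 12 hemidesmosome and basement membrane genes, which anchor basal cells, 7 fell in the keratin gate between IMQ and Sham and 5 did not pass, beside 16.3% called over all genes, with a median of -1.24 beside -0.06 over all genes. Between IMQ+SHP099 and Sham 4 of the 12 fell, beside 17.8% called over all genes. In the keratin-free gate 4 and 1 of the 12 fell in these comparisons, beside 9.26% and 9.58%. Col17a1, a transmembrane collagen of the hemidesmosome, stood at 1198 and 1024 CPM in Sham, whereas IMQ had 175 and 154 and IMQ+SHP099 315 and 217, and fell by 2.53 ± 0.42 on the log2 scale between IMQ and Sham (edgeR adjusted p = 0.00486). Dst, which links keratin filaments to hemidesmosomes, fell by 2.36 ± 0.29 and Itga3 by 1.32 ± 0.26, and Itga6, a laminin receptor chain, by 1.17 ± 0.32. In suprabasal-positive barcodes 9 of the 12 fell between IMQ and Sham, with a median of -2.70, and in basal-only barcodes 6 did, beside 16.9% and 14.6% called over all genes.

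Of 16 early suprabasal genes 2 rose and 2 fell in the gate between IMQ and Sham (median 0.01), which is 25% beside 16.3% called over all genes. In basal-only barcodes 6 rose and 2 fell (median 0.89), and between IMQ+SHP099 and Sham 8 rose and 3 fell (median 1.12), beside 14.6% and 17.8% called over all genes. In suprabasal-positive barcodes 2 rose and 3 fell in each comparison, beside 16.9% and 14.9% called over all genes. Mt4, a metallothionein of squamous epithelia, fell by 5.19 on the log2 scale from 485 and 689 CPM in Sham to 19.8 and 5.99 in IMQ, and the desmosomal cadherin Dsg1a fell by 2.12. Tgm1, a transglutaminase of the cornified envelope, rose by 2.82 and Cnfn, an envelope protein, by 2.83. Among epidermal transcription factors and Notch genes 3 of 23 rose and 3 fell (median -0.01), which is 26.1% beside 16.3% called over all genes. Prdm1 at 3.24 and Grhl3 at 2.14 were the highest, and Gata3 at -2.02 and Ets1 at -1.83 the lowest. Of 7 desmosomal filament linkers only Ppl was called (14.3%, beside 16.3% over all genes), and fell by 1.05. With library totals in place of edgeR's factors the median of all genes moved from -0.06 to -0.33 and the share of rises among called genes from 42.7% to 28.8%. The median of the early suprabasal list turned to -0.22, and the lists then had 6 and 10 (keratins), 0 and 8 (hemidesmosome), 2 and 3 (early suprabasal), 2 and 3 (transcription factors) and 0 and 1 (linkers) genes risen and fallen. Of all genes 14.3% were then called.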

How the data were processed

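Single-cell suspensions of dorsal skin were sequenced with 10x 3′ chemistry, and the authors made the deposited counts (UMIs per gene and barcode, not normalized) with Cell Ranger on mm10 (GRCm38). The sequencer is given differently by the labels and the methods. Each matrix was read whole, and the upper limits of the authors' methods were applied (100000 UMIs, 6500 genes and 10% of UMIs from mitochondrial genes), of which those on UMIs and genes removed 1.85% to 12.5% of gated barcodes.

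Counts of gated barcodes were summed per library and tested with edgeR 4.0.16 in R 4.3.3 (quasi-likelihood test, TMM factors, its filter on low counts, all 6 libraries in each fit, Benjamini-Hochberg adjustment over all genes, threshold 0.05). Alternatives used DESeq2 1.42.0, library totals, no filter, other gates and left-out libraries or barcodes. Detection and class shares used barcodes thinned to 2000 UMIs, in Python 3.11.15 with scanpy 1.11.5. Doublets were not removed. The automatic threshold of Scrublet marked 0 barcodes in 3 libraries, so the top 6% of scores were left out as an alternative. Background barcodes had 3 collagen genes at 30 or more UMIs per 10000. Between 11 and 127 gated barcodes of a library lay within 30 to 40 UMIs per 10000 of the gate keratins.

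Krt5, Krt14, Krt1 and Krt10 set the keratin gate and were tested only in the keratin-free gate. The 8 members are named in every library. From each list at most 4 genes were named, the 2 lowest and 2 highest log2 fold changes among called genes. Krt16 and Krt17 were added after their values were seen, because of their 3′ words shared with Krt14. The members, lists and tests were chosen with earlier results of these data known. Calls were tested on simulated data before use. Intervals and limits for 0 counts cover counting error only.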

Additional observations from a re-analysis of the deposited data

How the results depend on the processing

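Krt15, Krt77 and Krt2 kept their direction and their call between IMQ and Sham in all 17 alternatives run in the keratin gate, over ranges of -5.71 to -3.82 for Krt15, -12.60 to -10.29 for Krt77 and -11.29 to -6.84 for Krt2 on the log2 scale. Krt77 also did so between IMQ+SHP099 and Sham (-9.40 to -7.63). For Krt2, with 2 and 0 UMIs in the IMQ libraries, the kept call rests on the same near-zero counts and is no further support. Other differences depended on the setting, and the cause was not tested.

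Between IMQ+SHP099 and IMQ, DESeq2 called 19 genes and 1 member in the keratin gate, 1 member in the keratin-free gate and 1 in basal-only barcodes, and no filter on low counts gave 143 genes and 1, 1, 1 and 2 members (the last in suprabasal-positive barcodes). Outside the keratin gate these counts of members stand without a share over all genes, and are no support by themselves. Leaving out 1 library gave 0 to 4 genes. In the keratin-free gate between IMQ and Sham, 6 members were called by DESeq2 and 5 without a filter, where 17.0% and 13.0% of all genes were called beside 9.26%. Krt10 was then called (DESeq2 adjusted p = 8.05e-05), and Krt79 in the keratin gate without a filter (edgeR adjusted p = 0.000301).

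With 1 library left out, 955 to 2604 genes were called between IMQ and Sham (1372 without Sham 1, 955 without IMQ 1, 1186 without IMQ 2) and 699 to 2454 between IMQ+SHP099 and Sham (699 without IMQ+SHP099 1). Between IMQ+SHP099 and Sham the fewest members were called without IMQ+SHP099 1, in the keratin gate, the keratin-free gate and basal-only barcodes. Outside the keratin gate no share over all genes is given for these fits. The loss of members there therefore cannot be set against a general loss of calls. Differences under an SE changed sign: between IMQ+SHP099 and IMQ, Krt15 ranged from -0.93 to 0.95, Krt79 from -0.98 to 0.57, Krt10 from -0.66 to 0.35, Krt14 from -0.54 to 0.63 and Krt5 from -0.24 to 1.10. Between IMQ+SHP099 and Sham, Krt5 ranged from -0.47 to 0.87 and Krt1 from -0.0057 to 0.49, and between IMQ and Sham Krt5 from -0.61 to 0.27.

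Krt79 between IMQ+SHP099 and IMQ, -0.01, became 0.0026 with DESeq2, 0.028 with a mitochondrial limit of 5%, 0.029 without the top Scrublet scores and 0.21 without upper limits. With library totals, chosen for the keratin-free gate after seeing the data, Krt14 became -0.039 between IMQ+SHP099 and IMQ, and Krt5 -0.11 and Krt1 -0.14 between IMQ+SHP099 and Sham. The share with both pairs between IMQ+SHP099 and Sham became -3.42 points at 5 UMIs per 10000. The Krt5 share of strongly suprabasal barcodes between IMQ and Sham, 0.959 points, became -5.72 without thinning, and ranged from -0.94 to 2.86 with 1 library left out.

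The replicate numbers name separate pools of mice, with 2 numbers a group and no label for a shared animal, litter or day, so the design does not pair the samples. The correlations of the differences between replicates were 0.119, 0.215 and 0.0913 in the keratin gate, 0.162, 0.305 and 0.146 in the keratin-free gate, 0.191, 0.252 and 0.118 in basal-only barcodes, and 0.0436, 0.144 and 0.0395 in suprabasal-positive ones. A replicate block gave 3 genes between IMQ+SHP099 and IMQ in the keratin gate, where Krt79 was then called at 2.38 between IMQ and Sham (edgeR adjusted p = 0.000860) and 2.13 between IMQ+SHP099 and Sham (adjusted p = 0.00165). In the keratin-free gate the block gave 5 members between IMQ and Sham, with 16.6% of all genes called beside 9.26%, among them Krt10 at -1.98 (adjusted p = 0.0141), and called Krt14 at 1.46 between IMQ+SHP099 and Sham (adjusted p = 0.0479).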
